A study of Mus musculus with 15 samples.

Results

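Interleukin-24 (Il24) and 8 genes of the receptors and cytokines around it were followed through mouse eyes sequenced with their eyelids: Il20ra and Il20rb (receptor chains), Il6, Lif and Osm (cytokines), Osmr (a receptor chain), Stat3 (a transcription factor) and Socs3 (an inhibitor). The genes were taken by symbol from the tables of all libraries. They were 9 of 20418 symbols, and each was read from the transcript with the highest mean read count. The genes were selected on measured read counts of these libraries, the high Il24 of newborn eyes labelled Egr1-/- among them. Il24 is therefore given without a test in the comparisons that rest on those newborn libraries.

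The groups were newborn eyes labelled Egr1-/- (n = 2 libraries) and newborn wild type (n = 2), eyes of mice labelled Egr1-/- at day 3 with open eyelids (n = 4) or closed eyelids (n = 2), closed eyes of an Egr1+/- littermate at day 3 (n = 2), and adult eyes labelled Egr1-/- (n = 2) and adult wild type (n = 1). Egr1 encodes an early-response zinc finger factor, and the series concerns its part in eyelid development on the BALB/c background. The Egr1-/- line came from C57BL/6 mice and was backcrossed to BALB/c, over 5 generations at first and over 4 the next time. At day 3 each library was 1 eye. In mice E24 and E29 one eye was open and the other closed, E32 had open eyes only, and the Egr1+/- mouse E28 had closed eyes only. The sample titles name no animals for newborn and adult libraries, so the p-values there cover variation among libraries, which may be technical.

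IL-24 belongs to the IL-10 cytokine family and signals through receptors that pair the chain encoded by Il20rb with that of Il20ra or of Il22ra1, mainly on epithelial cells such as keratinocytes. IL-6, LIF and oncostatin M (Osm) share the receptor chain gp130 (Il6st), which pairs with Lifr or Osmr for some of them. Both kinds of receptor activate JAK kinases, which phosphorylate STAT3; phosphorylated STAT3 enters the nucleus and switches on genes, among them Socs3, whose product blocks the same receptors. RNA levels do not show whether STAT3 was phosphorylated.

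Sequences around the starts of these genes are shown because STAT3 acts at the palindrome TTCNNNGAA and Socs3 is one of its best known targets. RefSeq windows of 250 bases before to 50 after the start (GRCm38.p6) were found for 7 of the 9 genes, Il24 and Osm being named only. The palindrome occurred in 8.30% of 32851 promoter windows and, among the 7, in that of Socs3, 154 bases before the start. The AP-1 motif TGANTCA, searched like the others on both strands, occurred in 7.81% of windows. Among the 7 it was found in those of Lif, Il6, Il20ra and Osmr, once each. The match was TGACTCA in Lif and TGAGTCA in Il6 and Il20ra, all before the start. In Osmr it was TGATTCA, which the free letter N admits, 4 bases after the start. The EGR motif GCGTGGGCG occurred in 0.612% of windows and in none of the 7. The letters of the palindrome and of TGANTCA do not overlap in any window printed here. Socs3 lies on the minus strand at chr11:117969317-117969616, Lif on the plus strand at chr11:4257318-4257617 and Osmr on the minus strand at chr15:6874264-6874563. Each is written along the strand of its gene, with the palindrome (Socs3) or the AP-1 motif (Lif, Osmr) in capitals.
Socs3: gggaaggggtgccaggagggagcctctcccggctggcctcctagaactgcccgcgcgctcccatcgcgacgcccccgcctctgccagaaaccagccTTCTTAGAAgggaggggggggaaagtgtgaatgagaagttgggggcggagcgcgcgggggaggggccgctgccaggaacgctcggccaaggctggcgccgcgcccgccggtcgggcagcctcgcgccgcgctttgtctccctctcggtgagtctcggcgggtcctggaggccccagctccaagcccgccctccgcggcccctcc
Lif: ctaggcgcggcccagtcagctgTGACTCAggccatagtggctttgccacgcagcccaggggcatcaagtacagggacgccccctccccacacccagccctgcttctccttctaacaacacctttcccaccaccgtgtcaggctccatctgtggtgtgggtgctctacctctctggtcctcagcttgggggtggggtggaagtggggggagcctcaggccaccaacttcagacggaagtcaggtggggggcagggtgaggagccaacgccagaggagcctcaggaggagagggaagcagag
Osmr: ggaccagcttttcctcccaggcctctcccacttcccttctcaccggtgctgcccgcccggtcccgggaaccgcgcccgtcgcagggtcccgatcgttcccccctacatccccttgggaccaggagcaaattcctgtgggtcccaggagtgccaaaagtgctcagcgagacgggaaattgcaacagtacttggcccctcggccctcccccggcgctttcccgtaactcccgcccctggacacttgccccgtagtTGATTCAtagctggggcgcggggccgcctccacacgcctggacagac
A match of letters is a description of the window and not a site shown to be bound.

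The libraries held 20334849 to 43907093 reads in transcripts. Values are CPM, the read count of a gene scaled to the library's total after TMM normalisation, unless RPKM is named. The level of Egr1 went against the genotype labels: it was 214 and 273 CPM in newborn libraries labelled Egr1-/-, against 47.0 and 60.8 CPM in newborn wild type, and 255 and 185 CPM in adult libraries labelled Egr1-/-, against 33.2 CPM in the adult wild type. At day 3 it was 161 to 366 CPM in open eyes, 156 and 221 CPM in closed eyes of labelled Egr1-/- mice and 99.0 and 110.1 CPM in the Egr1+/- mouse. Which part of the gene the allele lacks is not given in the sources used here, and the groups are called by their labels throughout. Newborn labelled Egr1-/- replicate 1 stood apart in its lens genes, whose summed level over 7 genes was 439 CPM, against 51269 CPM in replicate 2 and 53941 to 57855 CPM in newborn wild type. Adult labelled Egr1-/- replicate 1 held 2.63 CPM of the corneal keratin Krt12, against 3865 CPM in replicate 2 and 6436 CPM in the adult wild type. Markers of eye tissue (lens and photoreceptor lists) were detected in all 15 libraries.

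Il24 RNA was found in eyes labelled Egr1-/- at birth and in open eyes at day 3, and was near or at 0 elsewhere. It is counted from NM_053095 (chromosome 1, minus strand, 1116 bases of exon). Newborn eyes labelled Egr1-/- gave 228 and 105 reads, or 7.59 and 4.03 CPM, against 3 and 1 reads, or 0.145 and 0.0428 CPM, in newborn wild type. The 2 groups did not overlap. The fitted log2 fold change was 5.91 ± 0.68 (SE), and the ratio of summed reads 65.2. Both describe values on which the genes were selected. Without replicate 1, the library poor in lens genes, the log2 fold change was 5.38 ± 1.04.

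At day 3, Il24 reads were found in open eyes and in no closed eye, also within single mice. The open eyes gave 14 reads (E24), 100 reads (E29), and 188 and 141 reads (E32), or 0.525, 3.77, 6.54 and 5.62 CPM. The closed eyes of E24, E29 and the Egr1+/- mouse E28 gave 0 reads in each of the 4 libraries. Every open eye was above every closed one, in E24 by the fewest reads. With a floor of 3 reads over the closed eyes, the level was at least 138-fold higher in open eyes. In E24 it was at least 4.30-fold higher in the open than in the closed eye, and in E29 at least 30.3-fold higher, with the floor taken per library. The closed eyes of E24 and E29 carried the same genotype label as their open eyes. With the mouse as a block, edgeR's quasi-likelihood test gave an adjusted p of 0.0653, which did not pass. Over 12 alternatives the adjusted p ran from 0.000289 (DESeq2) to 0.880 (without mouse E29). Il24 passed the count filter there through its reads in open eyes alone, so these p-values are not used as support for the read counts.

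In adults Il24 gave 1 read in each of the 2 libraries labelled Egr1-/- and 0 in the wild type, so that no fold can be given. The summed reads of adult libraries labelled Egr1-/- were 0.00759 times those of newborn ones after scaling. This is a description, since the genes were selected on those newborn libraries. The order of mean levels put newborn labelled Egr1-/- first (5.81 ± 2.52 CPM, SD, n = 2) and open eyes at day 3 next (4.12 ± 2.66 CPM, SD, n = 4), with ranges that overlap. All other groups averaged 0.0941 CPM or less. Levels of day 3 libraries and of newborn and adult libraries are set side by side and were not tested against each other. In bulk samples such as these, fewer cells of a type and less RNA per cell cannot be told apart.

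**Figure D1:**
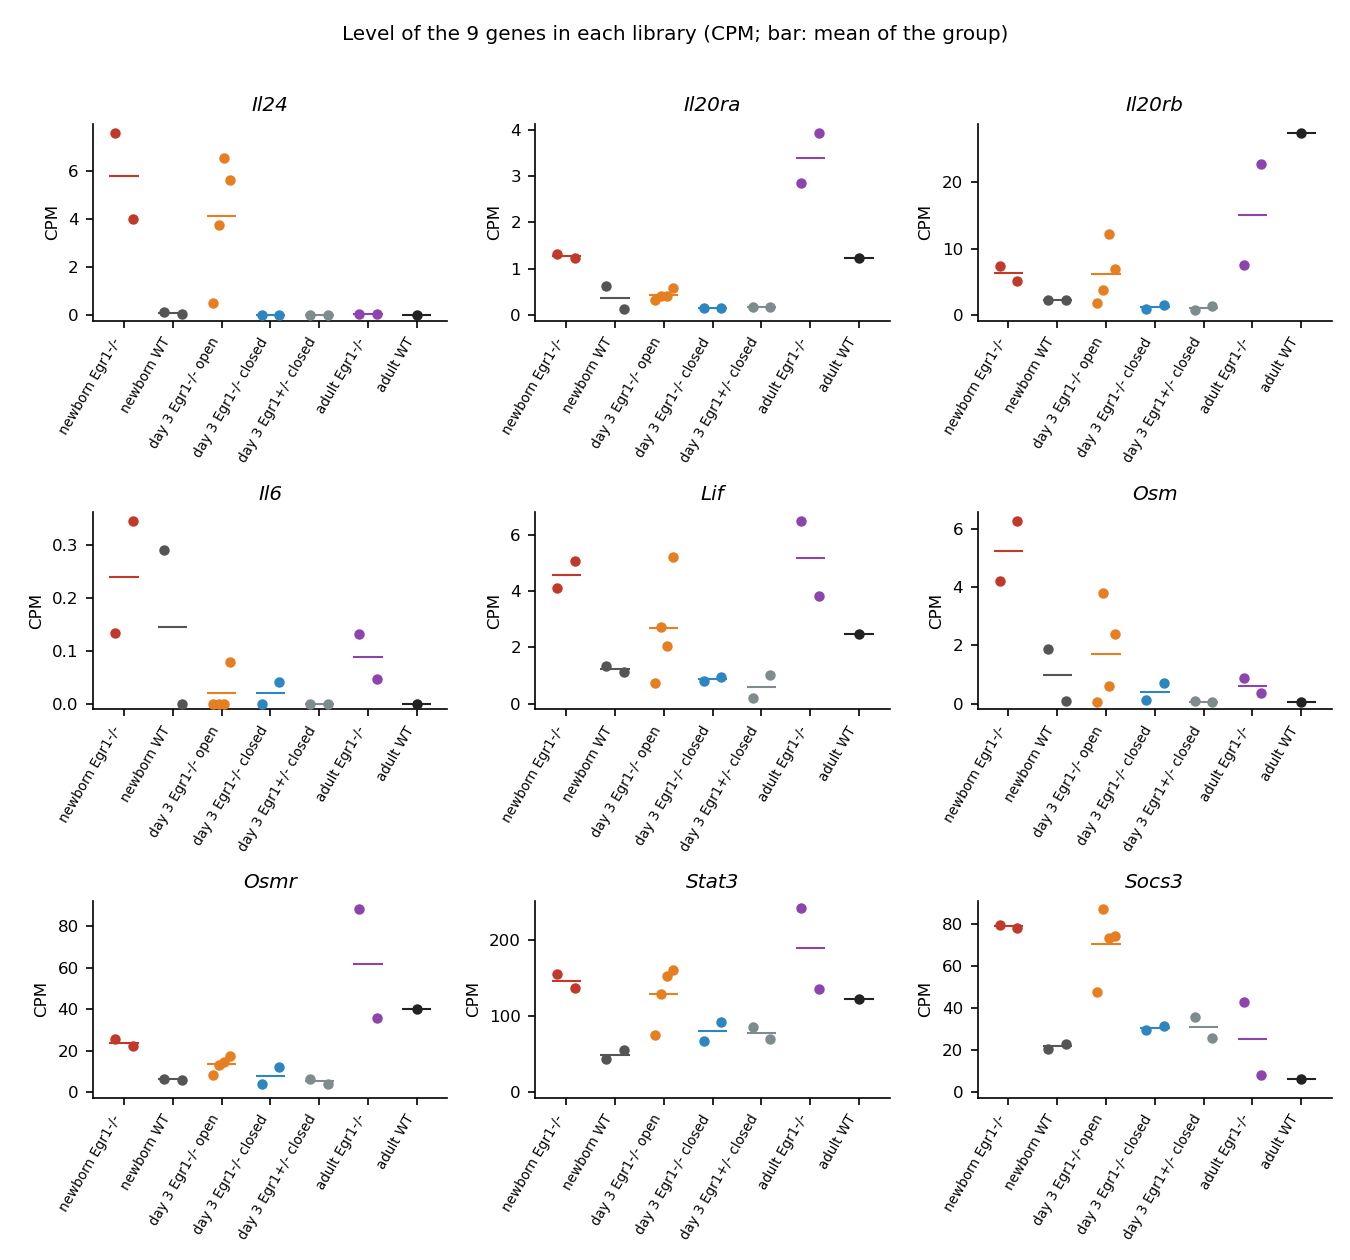
Each panel plots 1 gene, with 1 point per library on a linear CPM axis from 0 and a bar at the mean of the group; groups carry their genotype labels. Il24 was at 0.525 to 7.59 CPM in newborn labelled Egr1-/- and open day 3 eyes and at 0.145 CPM or less in all others, while Il20rb and Osmr had their highest group means in adult eyes.

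The receptor chains Il20rb and Il20ra, unlike Il24 itself, were counted in every library, those of adults included. Il20rb, the chain common to both receptor types, was at 7.46 and 5.18 CPM in newborn labelled Egr1-/- and 2.23 and 2.27 CPM in newborn wild type. The groups did not overlap, but the difference missed the threshold (log2 fold change 1.50 ± 0.51, edgeR adjusted p = 0.0756, and 0.00170 to 0.272 over 16 alternatives). In adult eyes, where Il24 was near 0, Il20rb was at 7.50 and 22.7 CPM in labelled Egr1-/- and 27.4 CPM in wild type. It rose with age in wild type by 3.58 ± 0.58 on the log2 scale (1 adult against 2 newborn libraries, edgeR adjusted p = 0.00394), and the adjusted p was 0.0501 without newborn wild-type replicate 1. In adults the genotype difference was -0.82 ± 0.56 (edgeR adjusted p = 1.0), and it ran from -1.83 to -0.23 with 1 library left out. The adult minus the newborn difference was -2.32 ± 0.75 with an edgeR adjusted p of 0.136. Without either adult labelled Egr1-/- library the same test passed, at an adjusted p of 0.0313 (without replicate 1) and 0.00722 (without replicate 2).

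At day 3 Il20rb was at 1.91 (E24), 3.85 (E29), 12.2 and 6.94 CPM (E32) in open eyes. It was at 0.937 (E24) and 1.53 CPM (E29) in closed eyes of labelled Egr1-/- mice and 0.803 and 1.40 CPM in the Egr1+/- mouse. Every open eye exceeded every closed eye. In E24 the ratio of open to closed eye was 2.04 (95% counting interval 1.23 to 3.50) and in E29 2.51 (1.71 to 3.76). Such intervals cover counting error only. The blocked fit gave 1.19 ± 0.49 on the log2 scale and an edgeR adjusted p of 0.793.

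Il20ra, the chain that binds IL-24 together with that of Il20rb, was counted by few reads. It was at 1.33 and 1.23 CPM in newborn labelled Egr1-/- and 0.630 and 0.128 CPM in newborn wild type (log2 fold change 1.78 ± 0.68, edgeR adjusted p = 0.102). Without newborn wild-type replicate 1 the fitted value was 3.29 (adjusted p = 0.0602). In adults it was at 2.85 and 3.94 CPM in labelled Egr1-/-, the highest levels of this gene in the series, and 1.24 CPM in wild type. Open eyes at day 3 had 9 to 15 reads and closed eyes 4 or 5 reads each. It did not reach the count filter there and was not tested.

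The gp130 cytokines differed in which groups held them. Il6, an inducer of the acute-phase response, had 9 reads or fewer in every library and was left out of every fit by the count filter. It had 4 and 9 reads in newborn labelled Egr1-/- and 6 and 0 in newborn wild type, so the groups overlap, and at most 3 in any library of the other groups. A change in Il6 RNA was not detectable at this depth.

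Lif, a cytokine that binds Lifr and gp130, rose in newborn eyes labelled Egr1-/-. It was at 4.09 and 5.06 CPM there, against 1.36 and 1.11 CPM in newborn wild type (log2 fold change 1.90 ± 0.37, edgeR adjusted p = 0.0115). In adult eyes it was at 6.49 and 3.84 CPM in labelled Egr1-/- and 2.49 CPM in wild type (1.09 ± 0.45, edgeR adjusted p = 1.0). At day 3 it was at 0.750 (E24), 2.72 (E29), 2.05 and 5.22 CPM (E32) in open eyes, against 0.815 (E24) and 0.954 CPM (E29) in closed eyes of the same label and 0.209 and 1.01 CPM in the Egr1+/- mouse. The 2 mice with an open and a closed eye differed: the ratio of open to closed was 0.921 in E24 (95% counting interval 0.470 to 1.803) and 2.85 in E29 (1.76 to 4.77). Without E29 the fitted difference turned to -0.10 ± 1.27 on the log2 scale, from 0.74 ± 0.88 with all eyes.

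Osm, a cytokine made mainly by white blood cells that binds gp130 with Osmr or Lifr, was at 4.19 and 6.25 CPM in newborn labelled Egr1-/- and 1.89 and 0.0857 CPM in newborn wild type (log2 fold change 2.44 ± 1.01, edgeR adjusted p = 0.129). The groups did not overlap, and without newborn wild-type replicate 1 the fitted value was 5.87, and without replicate 2 it was 1.50. Open eyes at day 3 ranged from 0.0750 CPM (E24) to 3.81 CPM (E29), with 0.591 and 2.39 CPM in E32, and closed eyes from 0.0437 to 0.705 CPM. In adults 28 reads over the 2 libraries labelled Egr1-/- stood against 1 in the wild type, a ratio of 13.7 whose counting interval reached from 2.26 to 560.

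Osmr, the oncostatin M receptor chain, rose in newborn eyes labelled Egr1-/-, to 25.4 and 22.2 CPM, against 6.45 and 5.95 CPM in newborn wild type (log2 fold change 1.95 ± 0.40, edgeR adjusted p = 0.0136). It was higher in adults than in newborns within both genotypes, by 2.67 ± 0.45 in wild type (edgeR adjusted p = 0.00469) and 1.38 ± 0.38 in labelled Egr1-/- (edgeR adjusted p = 0.0257). With single libraries left out, the adjusted p reached 0.0533 in wild type (without newborn wild-type replicate 2) and 0.101 in labelled Egr1-/- (without newborn labelled Egr1-/- replicate 2). In adults it was at 88.0 and 35.6 CPM in labelled Egr1-/-, on either side of the 40.0 CPM of the wild type. At day 3 it was at 8.47 (E24), 13.0 (E29), 14.7 and 17.2 CPM (E32) in open eyes, and at 3.71 (E24), 12.03 (E29), 6.46 and 3.93 CPM (E28) in closed eyes. The open eye of E24 had 2.29 times the level of its closed eye (95% counting interval 1.79 to 2.95), and that of E29 1.08 times (0.920 to 1.27).

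Per length of transcript, Stat3 stood first among the 9 in newborn eyes labelled Egr1-/-. Its mean RPKM, the authors' read count scaled by transcript length and library size, was 30.3 in newborn labelled Egr1-/-, with Socs3 at 29.3, Il24 at 4.89, Osmr at 4.59, Osm at 2.54, Il20rb at 2.39, Lif at 1.06, Il20ra at 0.572 and Il6 at 0.203. In the adult wild type Stat3 was at 24.1 RPKM, Il20rb at 9.76 and Osmr at 7.32, and Socs3 at 2.13. Per length, Il24 thus stood above Il20rb and Il20ra in newborn eyes labelled Egr1-/-, and in the adult wild type these chains were present with no Il24 read.

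Stat3 rose in newborn eyes labelled Egr1-/-, to 155 and 136 CPM, against 43.0 and 54.6 CPM in newborn wild type (log2 fold change 1.58 ± 0.30, edgeR adjusted p = 0.0108). In wild type it was higher in the adult than in newborns by 1.30 ± 0.35 (edgeR adjusted p = 0.0270, and 0.127 or 0.0737 without newborn wild-type replicate 1 or 2). In adults it was at 241 and 136 CPM in labelled Egr1-/- and 123 CPM in wild type (0.65 ± 0.37, edgeR adjusted p = 1.0). Open eyes at day 3 had 74.9 (E24), 128 (E29), 152 and 160 CPM (E32). Closed eyes had 66.8 (E24), 92.1 (E29), 85.0 and 70.2 CPM (E28), and the open eye of E24 lay within that range. The blocked fit gave 0.34 ± 0.16 (edgeR adjusted p = 0.991), with ratios of open to closed eye of 1.12 in E24 (95% counting interval 1.05 to 1.20) and 1.40 in E29 (1.32 to 1.47).

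Socs3, the feedback inhibitor whose promoter holds the palindrome shown above, was at 79.8 and 78.3 CPM in newborn labelled Egr1-/- and 20.6 and 23.0 CPM in newborn wild type. The libraries of each group lay close together and the groups were far apart, but the difference missed the threshold in the fit shared with adults (log2 fold change 1.87 ± 0.62, edgeR adjusted p = 0.0705). In the 4 newborn libraries alone it was 1.81 ± 0.12 (edgeR adjusted p = 0.00293). In adults the 2 libraries labelled Egr1-/- lay far apart, at 42.7 and 8.29 CPM, with the wild type at 6.08 CPM. The adult difference was 2.10 ± 0.85 (edgeR adjusted p = 1.0), and 2.84 without labelled Egr1-/- replicate 2 (adjusted p = 0.00309) or 0.49 without replicate 1, the library poor in Krt12.

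At day 3 Socs3 was at 47.7 (E24), 87.2 (E29), 73.2 and 74.2 CPM (E32) in open eyes. It was at 29.7 (E24) and 31.6 CPM (E29) in closed eyes of the same label and 36.0 and 25.7 CPM in the Egr1+/- mouse. Every open eye exceeded every closed eye, and the closed eyes of both genotypes overlapped. The ratio of open to closed eye was 1.61 in E24 (95% counting interval 1.47 to 1.76) and 2.75 in E29 (2.54 to 2.99). The blocked fit gave 1.09 ± 0.24 and an edgeR adjusted p of 0.183, which did not pass. The edgeR fit without a mouse term, which treats eyes of the same mouse as separate samples, gave 1.26 ± 0.20 (adjusted p = 0.0120). DESeq2 with the mouse term gave an adjusted p of 0.00859. In the eyes of E24 and E29 alone the edgeR adjusted p was 0.0755, and without E24 it was 0.353. Socs3 did not pass without E29 either.

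**Figure D2:**
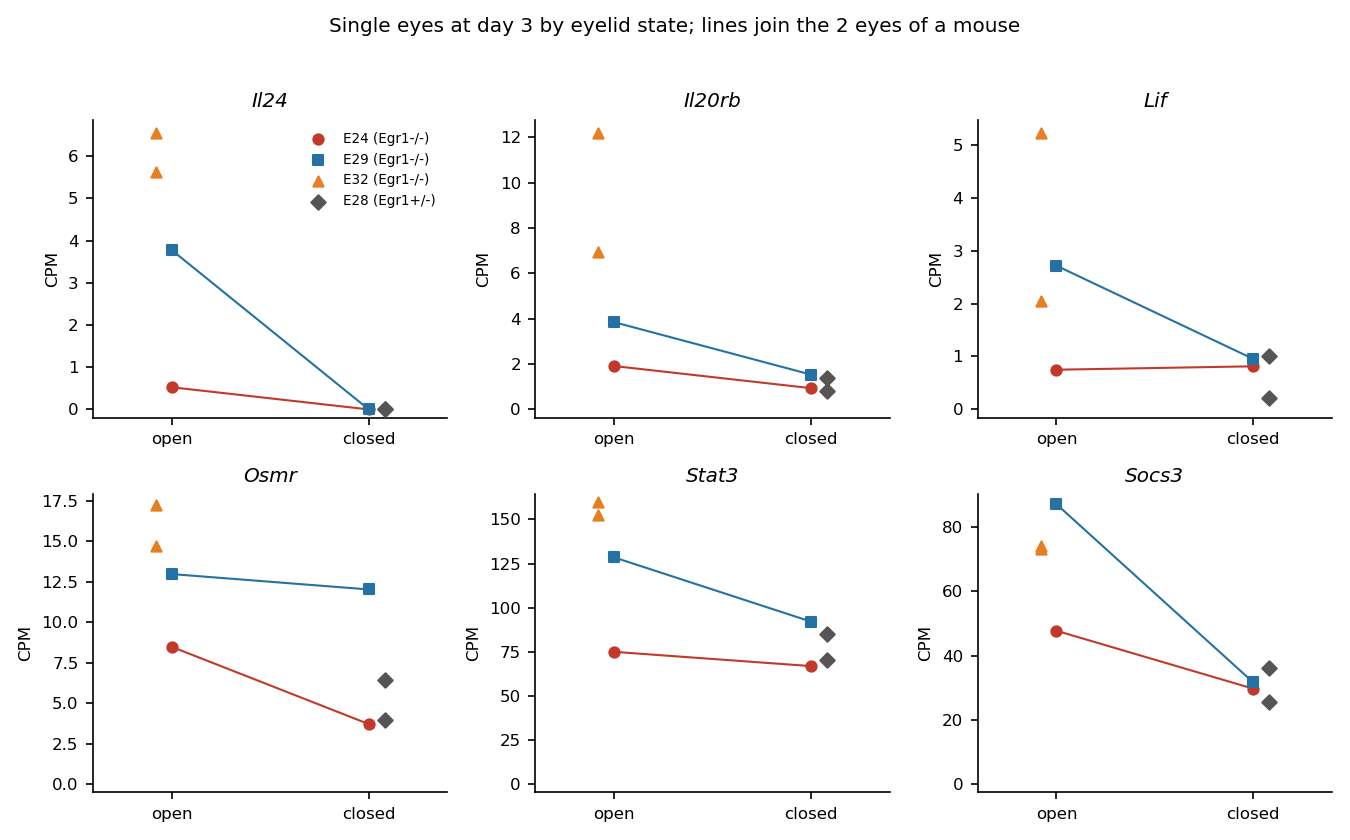
Each point is 1 eye at day 3, in CPM on a linear axis from 0, with open eyes left of closed ones and lines joining the eyes of E24 and E29. Il24 was at 0 in all 4 closed eyes, Il20rb and Socs3 were higher in every open eye, and Lif, Osmr and Stat3 overlapped between the eyelid states.

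Across the 9 genes, 8 passed the count filter in the newborn comparison. Of the 7 besides Il24, which has no test here, 3 were called higher (Lif, Osmr and Stat3), where 14.6% of the 17592 genes tested were called higher. These 7, and Il24, had both libraries labelled Egr1-/- above both wild-type libraries, as had 33.3% of genes tested. All 9 genes were chosen with earlier results of these data known, so the shares here and below are descriptions and test no set. The median log2 fold change of the 8, Il24 included, was 1.88, against -0.07 over all genes tested. The split of newborn calls moved with the scaling: 2576 genes were called higher and 1650 lower with TMM, 2126 and 2043 with library totals, and 2751 and 1084 with the authors' own totals. The median of all genes was then -0.15 and 0.08. The calls of Lif, Osmr and Stat3 were kept when either newborn labelled Egr1-/- library was left out, and ended when either newborn wild-type library was.

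In adults none of the 7 tested besides Il24 was called, and 0.0% of genes were called at all by edgeR. At an unadjusted p under 0.05 there were 506 genes, and DESeq2 called 107. Il20ra, Lif, Osm, Stat3 and Socs3 had both labelled Egr1-/- libraries above the wild type, as had 25.7% of genes tested, and so had Il24 and Il6 with 1 to 3 reads. With 1 genotype effect over both ages, none of the 7 tested besides Il24 passed (Lif 1.56 ± 0.31, Stat3 1.20 ± 0.29, edgeR adjusted p = 0.219 for both), and 0.0114% of genes were called. Lif and Stat3 were higher in every one of the 4 labelled Egr1-/- libraries than in any of the 3 wild-type ones, as were 3.43% of genes tested. Il24 had a log2 fold change of 5.85 ± 0.63 in that fit. The adult minus the newborn genotype difference was called for none of the 7 tested besides Il24, where 2.80% of genes were called. In the comparison of ages, 3 of the 7 besides Il24 were higher in the adult than in newborn wild type (Il20rb, Osmr and Stat3), where 18.0% of genes were called higher and 14.6% lower. In labelled Egr1-/-, Osmr was called higher, where 19.3% of genes were called higher and 20.4% lower. Il24, which has no test there, had a log2 fold change of -6.85 ± 0.74. These age comparisons share libraries with the genotype comparisons.

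At day 3, 7 of the 9 were tested for open against closed eyes and none passed, where 0.548% of 15159 genes did. Il24, Il20ra, Il20rb and Socs3 had every open eye above every closed eye, as had 6.22% of genes tested, among which Il20ra is not counted. Comparing the 3 labelled Egr1-/- mice with the Egr1+/- mouse, with both eyes of a mouse summed, none of 8 passed, and edgeR called 0.0% of 16453 genes (DESeq2 called 96). Socs3 differed by 0.92 ± 0.44 there and by -0.0045 when only closed eyes were used.

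**Figure D3:**
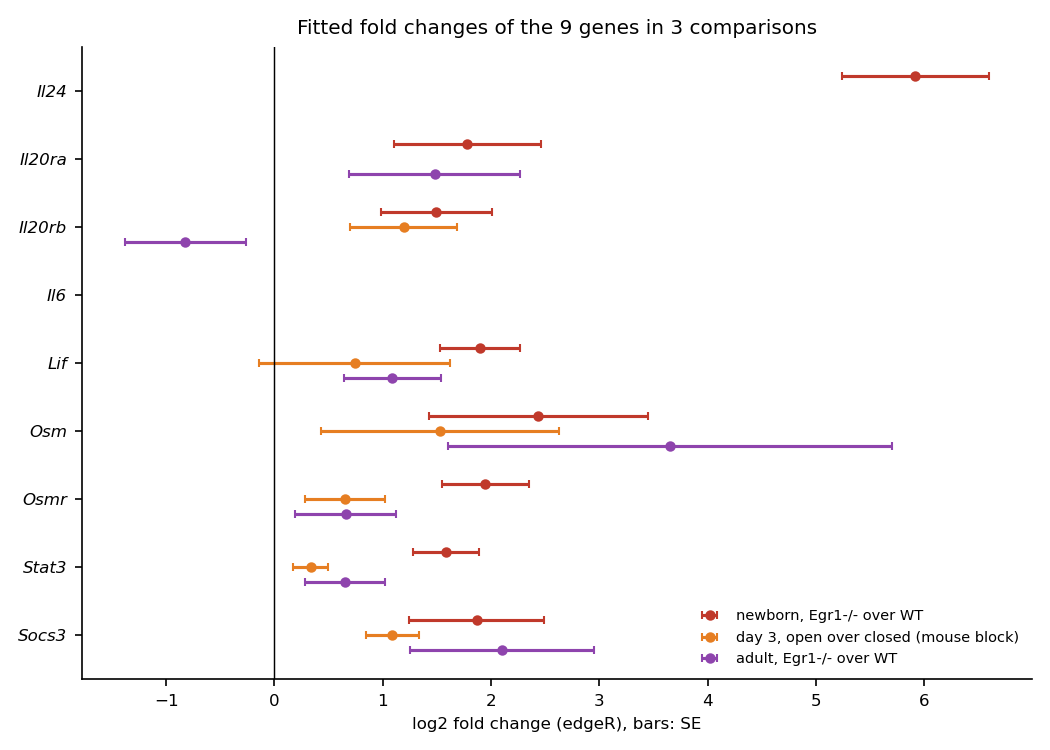
Points are fitted log2 fold changes from edgeR with their SE, for newborn eyes (labelled Egr1-/- over wild type), day 3 eyes (open over closed, mouse as a block) and adult eyes (labelled Egr1-/- over wild type). Genes left out by the count filter have no point, and Il24 is drawn for newborns only, its other comparisons being against 0 reads; of the values shown, only that of Il20rb in adults, -0.82, lies below 0.

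The genes with levels most like those of Il24 over the 15 libraries were the keratinocyte envelope gene Sprr2a (Pearson r of log2 CPM 0.97), Stfa2 (a stefin, 0.97), Fam150b (0.97), Ripk3 (a kinase of necroptosis, 0.96) and Tnfsf11 (RANKL, 0.96), among 14460 genes. Those most like Socs3 were Slc15a3 (0.98), Msn (moesin, 0.96), Lrrc33 (0.95), Il4ra (0.94) and Gusb (0.93). Those most like Stat3 were Bcl3 (0.95), Ctgf (0.95), Il6st (0.94), Ctsb (cathepsin B, 0.94) and Sptlc1 (0.94). These are descriptions across libraries that share groups and mice. Reads of the Sprr2 and Stfa families may be shared between near-identical copies, so single members of them are uncertain.

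Other genes of the pathway, from lists chosen with earlier results of these data known, rose in part in newborn eyes labelled Egr1-/-, and none fell. Of all genes, 14.6% rose and 9.38% fell in that comparison. Of the gp130 ligands and receptors, 5 of 14 tested rose, among them gp130 itself, Il6st (1.67 ± 0.26, edgeR adjusted p = 0.00581), and the IL-6 receptor chain Il6ra (1.57 ± 0.31, 0.0128). Il6st stood at 233 ± 15.4 CPM in labelled Egr1-/- and 73.6 ± 5.52 CPM in wild type (SD, n = 2 each). Of the IL-10 and IL-20 family, 2 of 6 rose, the receptor chains Il10rb (1.43 ± 0.24, edgeR adjusted p = 0.00713) and Il10ra (2.11 ± 0.52, 0.0266). Of the JAK and STAT genes besides Stat3, 4 of 10 rose, with Stat6 (1.93 ± 0.22, edgeR adjusted p = 0.00330), Jak3 (1.77 ± 0.43, 0.0251) and Stat5a (0.81 ± 0.20, 0.0294) first. Of 15 feedback genes, 4 rose, with the phosphatase gene Ptpn6 (1.66 ± 0.28, edgeR adjusted p = 0.00701), Socs1 (1.51 ± 0.33, 0.0170) and Socs6 (0.65 ± 0.16, 0.0266) first.

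Of 25 genes known to be induced through STAT3, 14 rose in newborn eyes labelled Egr1-/-, where 14.6% of all genes did, and the median log2 fold change of the 25 was 1.78. First by p were Junb (2.44 ± 0.23, edgeR adjusted p = 0.00262), Myc (1.78 ± 0.17, 0.00262) and Fos (2.48 ± 0.25, 0.00287), which encode transcription factors that many other signals also induce. Junb stood at 157 ± 5.00 CPM in labelled Egr1-/- and 29.1 ± 6.59 CPM in wild type (SD, n = 2 each). That median was 1.27 without newborn labelled Egr1-/- replicate 1, 1.70 without newborn wild-type replicate 1 and 1.74 without wild-type replicate 2. These fits leave 1 library in a group and called fewer genes, among all tested, than the main fit. The calls of this and the other 4 lists did not all hold in them.

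At day 3 only Bcl3, an NF-kappaB co-regulator of the list of STAT3-induced genes, rose in open eyes (1.68 ± 0.19, edgeR adjusted p = 0.0132), where 0.488% of genes rose, at 30.8 ± 12.6 CPM in open and 9.16 ± 3.52 CPM in closed eyes (SD, n = 4 each). It passed no more when E24 or E29 was left out, in fits that called few or no genes among all tested. No gene of the other 4 lists passed there, and none of any list passed in adults. The genotype effect was smaller in adults than in newborns for Stat6 (a difference of -1.82 ± 0.33, edgeR adjusted p = 0.0432) and Myc (-1.39 ± 0.26, 0.0438).

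**Figure D4:**
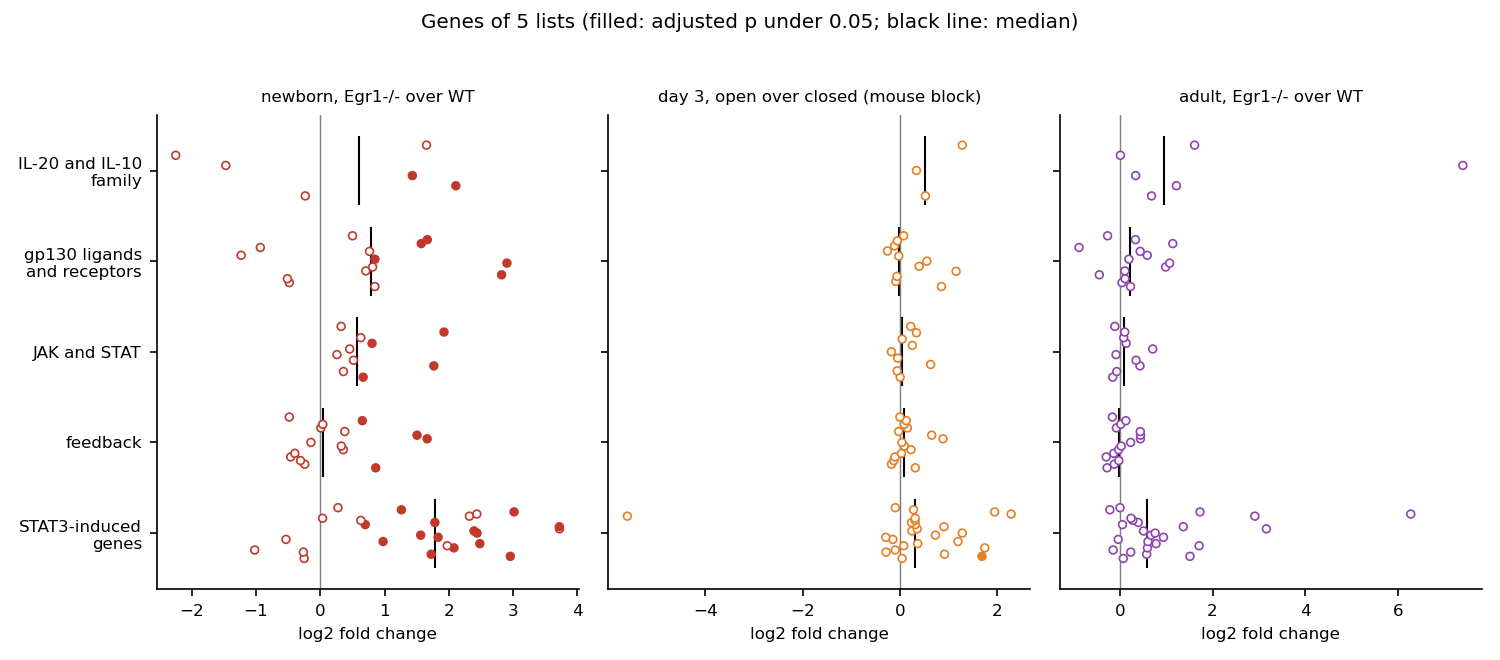
Each point is the log2 fold change of 1 gene, filled where the adjusted p was under 0.05, with a black line at the median of the list, for newborn, day 3 and adult comparisons. Filled points are confined to the right side in newborns, Bcl3 is the 1 filled point at day 3, and adults have none.

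Keratinocyte, neutrophil and macrophage genes were also higher in newborn eyes labelled Egr1-/-, where Il24 and Socs3 were high. In open eyes at day 3 keratinocyte genes were higher, as was the summed level of macrophage genes. The summed levels of corneal epithelium genes and of T cell genes were not higher in either comparison. The summed level of 12 basal and stressed keratinocyte genes was 12414 and 12841 CPM in newborn labelled Egr1-/-, against 1172 and 1791 CPM in newborn wild type. At day 3 it was 6606 to 16971 CPM in open eyes, against 1284 to 2755 CPM in closed eyes. All 12 rose in the newborn comparison, where 14.6% of all genes did, and 9 of 12 in the open eyes, where 0.488% did. The marker lists, like the pathway lists, were chosen with earlier results of these data known, so such shares are descriptions. The median log2 fold change of the 12 was 3.40 in newborns without wild-type replicate 1. In open eyes it was 3.36 without E24 and 2.47 without E29. The calls did not hold in these fits, which called few or no genes among all tested. In adults, where Il24 had at most 1 read, the same sum was 8603 and 13246 CPM in labelled Egr1-/- and 11416 CPM in wild type. None of the 12 was at 0 in any library.

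The summed level of 10 neutrophil genes was 252 and 369 CPM in newborn labelled Egr1-/- and 14.9 and 15.4 CPM in newborn wild type. It was 39.7 to 447 CPM in open and 9.94 to 40.8 CPM in closed eyes at day 3, and 458 and 618 CPM in adult labelled Egr1-/- against 210 CPM in adult wild type. In the adult wild type S100a8, S100a9, Csf3r and Mpo were at 0.184, 0.967, 1.43 and 0 CPM. None of them exceeded 25.8 CPM in newborn labelled Egr1-/-. The sums there rest mostly on other genes of the list and are not read as neutrophil numbers. Of the 10, 6 rose in the newborn comparison, where 14.6% of all genes did. Without newborn wild-type replicate 1 the calls did not hold, as for all genes tested, and the median log2 fold change of the 10 was 3.49. At day 3 none of the 8 tested passed. The neutrophil enzyme gene Mpo was at 0 reads in the adult wild type. At day 3 it had 2 (E24), 77 (E29), 32 and 413 reads (E32) in open eyes. Closed eyes had 0 (E24), 3 (E29), 66 and 7 reads (E28) of Mpo, so the eyelid states overlapped. The 10 macrophage genes summed to 393 and 510 CPM in newborn labelled Egr1-/- and 148 CPM in both newborn wild-type libraries, and 4 of the 10 rose. At day 3 they summed to 319 to 449 CPM in open and 172 to 257 CPM in closed eyes, and none of the 10 passed. In 6 of the 10 every open eye was above every closed eye, as in 6.22% of genes tested. The 3 corneal epithelium genes summed to 227 and 204 CPM in newborn labelled Egr1-/- and 272 and 323 CPM in newborn wild type, and to 178 to 368 CPM in open and 465 to 515 CPM in closed eyes. In each comparison 1 of the 3 fell. In 1 of the 3 both newborn libraries labelled Egr1-/- lay above both wild-type ones, as in 33.3% of genes tested. Krt12 was at 7.72 and 17.4 CPM in newborn labelled Egr1-/- and 14.3 and 29.4 CPM in newborn wild type. The newborn sums therefore rest mostly on other genes of the list. Of 7 T cell genes, none passed in these comparisons, and their sum was at most 19.1 CPM in any library. Their part in the differences of the 9 genes was not tested.

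**Figure D5:**
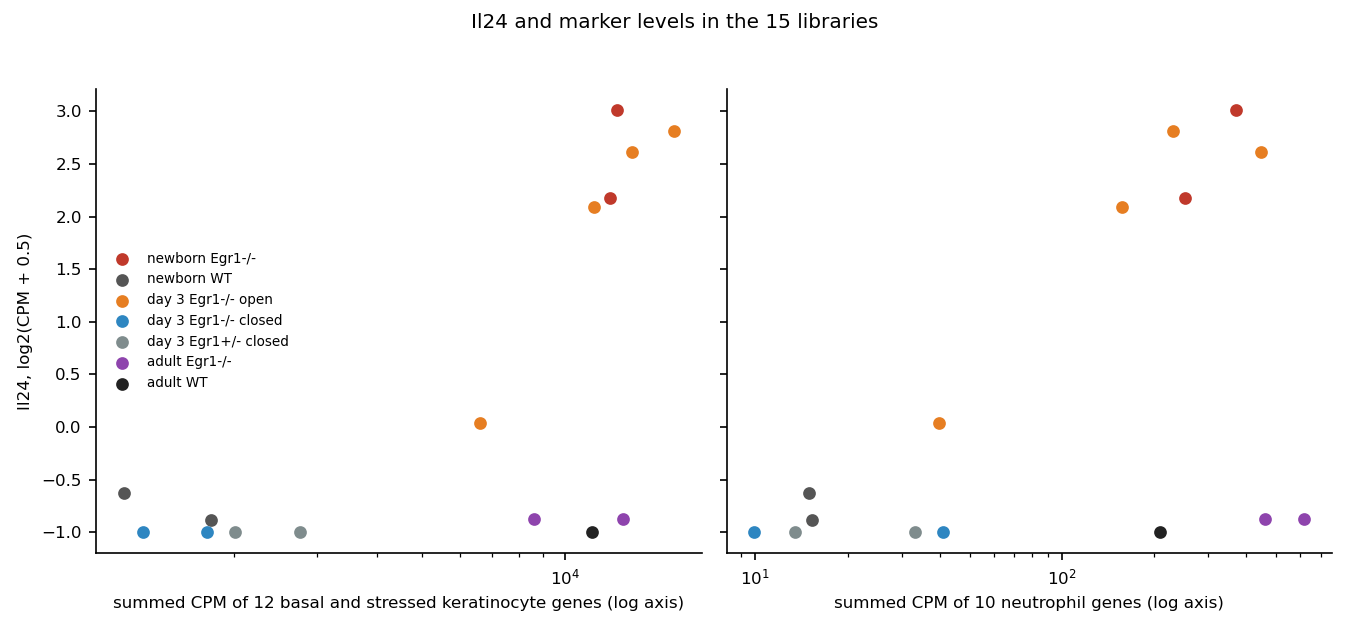
Il24 as log2(CPM + 0.5) against the summed CPM of 12 keratinocyte genes (left) and 10 neutrophil genes (right) on a log axis, 1 point per library. Newborn labelled Egr1-/- and open eyes lie at 6606 CPM of keratinocyte genes or more, while the 3 adult libraries hold 8603 to 13246 CPM of keratinocyte genes with Il24 at 1 read or fewer.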

How the data were processed

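Poly(A)+ RNA of eyes with eyelids was sequenced on an Illumina HiSeq instrument after 18 PCR cycles, by a protocol that does not keep strand. The labels mention glutaraldehyde and formalin in one place and RNAlater in another, and which eyes were fixed is not clear from them. The submitters' processing notes name CASAVA 1.8, Bowtie 0.12.9, TopHat2 2.0.11, SAMtools and build mm8. The annotation release and counting tool are not given in the sources used here. Per the file headers, the deposited tables give the authors' raw read counts and RPKM for 24373 RefSeq transcripts.

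Tests used edgeR 4.0.16 under R 4.3.3: filterByExpr, TMM, the quasi-likelihood test and Benjamini-Hochberg adjustment across all genes tested, at 0.05. One fit, with each group's own mean, held newborns and adults, the lone adult wild type being assumed to vary like the rest. Another held the 8 eyes at day 3, mouse being its blocking term. For labelled Egr1-/- against Egr1+/-, eyes were summed per mouse (3 against 1), the lone mouse again assumed to vary like the others. An SE is the log2 fold change divided by the square root of F. A floor is 3 reads, over the group or, within a mouse, per library. Counting intervals are exact, at 95%, and cover counting error only, since PCR copies were not told apart.

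Members and gene lists were chosen with earlier results of these data known. Named were all members, Egr1, up to 3 genes per list with the smallest p among those that passed, and the 5 genes most like Il24, Socs3 and Stat3 among those with a mean of at least 10 reads; 1 gene that this rule names is not reported here. Krt12, Mpo, S100a8, S100a9 and Csf3r were picked after their values were seen. Alternatives were other scalings and filters, DESeq2 1.42.0, limma 3.58.1 (voom), summed transcripts, subsets, and libraries or mice left out; the authors' library totals, recovered from the deposited RPKM, and the list counts with libraries left out were added after seeing the data. The fits were tested on simulated data.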

Additional observations from a re-analysis of the deposited data

Results flagged for a closer look

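Among the 4 open eyes at day 3, Il6 stood out in the left eye of E32, with 0.0798 CPM (2 reads) against 0 reads in the other 3 open eyes. Its gap to the other eyes was the whole range of the group. The 2 reads lie under the floor of 3 reads, so no level is read from them.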

How the results depend on the processing

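Of 899 values of the 9 genes and Egr1 under alternatives, 813 kept their direction and side of the threshold (or, for Il24 where it has no test, stayed within 1 SE of the reported value), 59 newly passed, 17 no longer passed and 8 turned direction. The other 2 were untested Il24 values, in newborns and over both ages, that moved by more than 1 SE without newborn wild-type replicate 1 (6.94 and 6.78). Values that kept direction and side could still change in size: without that library newborn Osm was 5.87 and newborn Il20ra 3.29. Turned were Osmr in adults without labelled Egr1-/- replicate 1 (-0.13; range with 1 library left out -0.13 to 1.17). Without the same library, Lif (-0.24, range to 0.53) and Stat3 (-0.10, range to 0.75) turned in adult against newborn labelled Egr1-/-, and Socs3 in the adult minus newborn difference (-1.38, adjusted p = 0.0408, range to 0.95). In that difference Osm turned without newborn wild-type replicate 1 (-2.22, range to 2.14) and Il20ra without replicate 2 (0.41, range from -1.82). At day 3 Lif turned without E29 (-0.10, and 1.52 without E24), and Socs3 in closed eyes alone for labelled Egr1-/- against Egr1+/- (-0.0045).

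Counts of genes called were 0 in adults, but 33 with the authors' totals, 13 with no filter and 107 with DESeq2. DESeq2 called 1486 over both ages (edgeR 2), 2131 for the difference between ages (edgeR 492, and 229 without TMM), 352 for open against closed eyes (edgeR 83) and 96 for labelled Egr1-/- against Egr1+/- (edgeR 0). For open against closed eyes, 400 were called with no replicate block (no mouse term), 154 with the mouse as a random effect and 210 in the eyes of E24 and E29 alone. With 1 library or mouse left out, counts ran from 0 to 5116 in newborns, 0 to 205 in adults, 0 to 4502 over both ages, 0 to 1613 for the difference between ages, 5003 to 7351 and 3460 to 6424 for adult against newborn labelled Egr1-/- and wild type, 0 to 1 for open against closed eyes (0 without E24, 1 without E29) and 0 to 6 for labelled Egr1-/- against Egr1+/-. The cause was not tested. The lowest newborn count came without newborn wild-type replicate 1.

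Newborn libraries share replicate numbers with no stated pairing. A replicate block on them called 5271 genes, against 4226, with Socs3 (adjusted p = 0.000254), Il20rb (0.00876) and Osm (0.0390) also passing. Across genes, the differences between replicates 1 and 2 of the newborn groups had a correlation of 0.106. Few reads limit Il24 outside newborn labelled Egr1-/- and open eyes, Il6 and Osm.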

Other observations

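In wild type, further genes of the pathway differed between the adult and the newborn libraries. Of 14 gp130 ligands and receptors, 4 rose, among them Lifr, the LIF receptor chain (1.38 ± 0.19 on the log2 scale, edgeR adjusted p = 0.00218), and 2 fell, where 18.0% of all genes rose and 14.6% fell. Without newborn wild-type replicate 1, 2 rose and 1 fell, and without replicate 2, 2 rose and 0 fell. Of 10 JAK and STAT genes, 4 rose, with Stat6 (1.65 ± 0.25, edgeR adjusted p = 0.00314), Jak1 (1.00 ± 0.20, 0.00954) and Jak2 (0.93 ± 0.20, 0.0115) first, and 2 did without newborn wild-type replicate 1. In labelled Egr1-/-, 4 of 15 feedback genes were higher and 3 lower in adults than in newborns, where 19.3% of all genes were higher and 20.4% lower. First by p were Socs1, Ptpn2 and Socs2. The phosphatase gene Ptpn2 was higher, at 29.3 ± 2.89 CPM in adults against 13.3 ± 0.296 CPM in newborns (SD, n = 2 each; 1.14 ± 0.16, edgeR adjusted p = 0.00168). The inhibitor gene Socs1 was lower in adults, at 2.27 ± 0.39 CPM against 12.3 ± 3.81 CPM in newborns (SD, n = 2 each; -2.44 ± 0.34, edgeR adjusted p = 0.00163).

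Other marker lists also moved in newborn eyes labelled Egr1-/-, where 14.6% of all genes rose and 9.38% fell. Without newborn wild-type replicate 1 the calls of these lists did not hold, as for all genes tested. All 7 photoreceptor genes fell, with a sum of 54.4 and 179 CPM in labelled Egr1-/- and 703 and 816 CPM in wild type. Of 7 fibroblast genes 4 rose, of 5 endothelial genes 4, of 6 skeletal muscle genes 3 and of 7 cornified epidermis genes 4. In open eyes at day 3, 2 of the 7 cornified epidermis genes rose and 1 of 3 corneal epithelium genes fell, where 0.488% of all genes rose and 0.0594% fell.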
